A study of Mus musculus with 24 samples.

Results

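The dose comparison concerned 10 lungs with high Cxcl2 among the 15 lungs of mice that drank an aqueous Artemisia argyi extract (AEAA) before a lipopolysaccharide (LPS) challenge, in a series of 24 lungs. The libraries were chosen by 1 measured value, a Cxcl2 level of 10 TPM (length-normalized transcript abundance, scaled to a fixed total per library) or more. That left 4 lungs at the low dose of 0.5 mg/mL, 3 at the mid dose of 1 mg/mL and 3 at the high dose of 1.5 mg/mL. The question was whether transcript levels moved with the dose of extract among lungs in which this LPS response gene was high.

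All 10 mice were wild-type C57BL/6 animals, 7 weeks old and labelled male, on an AIN-76A diet. They had the extract in their drinking water for 28 days, then LPS into the trachea at 5 mg/kg, and the lungs were collected 8 h later. Other mice of the series had LPS without extract (n = 5) or neither (control, n = 4). The control mice had sterile saline by the protocol, while their sample characteristics list the LPS challenge. These groups had no part in the dose fit and are given only for orientation.

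LPS is a cell wall component of Gram-negative bacteria that is sensed through Cd14 and Tlr4. In the lung, macrophages and epithelial cells answer it with chemokines, of which the Cxcl2 protein draws neutrophils from the blood into the airspaces. The response also brings cytokines, acute-phase proteins and a shift of activated myeloid cells toward glycolysis.

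Cxcl2 split the challenged lungs into separate classes. As deposited, it stood at 267, 343, 283 and 294 TPM in the low-dose lungs, at 454, 150 and 252 TPM in the mid-dose lungs, and at 179, 334 and 314 TPM in the high-dose lungs. The lowest chosen lung had 149.55 TPM and the highest extract lung left out had 0.64 TPM, so no lung lay near the threshold. The 5 extract lungs left out held 0.37 to 0.64 TPM. LPS lungs without extract held 262, 1.37, 45.1, 0.09 and 190 TPM, and control lungs 0.06 to 0.27 TPM. Because Cxcl2 chose the lungs, its level by dose is a description and was not tested.

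**Figure D1:**
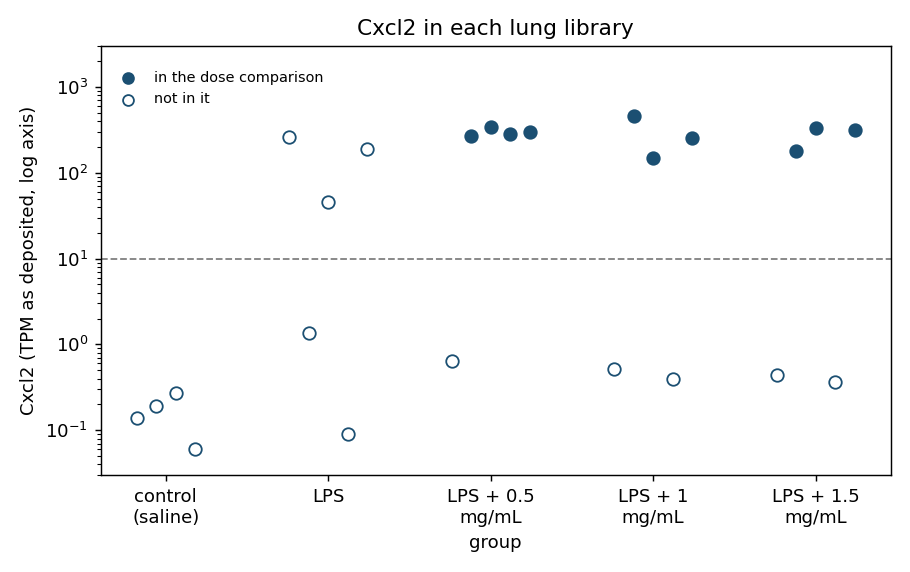
Cxcl2 in TPM as deposited (log axis) in each of the 24 lung libraries, by group. Filled points are the 10 libraries of the dose comparison, open points the others, and the dashed line marks 10 TPM. Each extract group holds lungs above 149 TPM and lungs below 1 TPM.

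The libraries differed in ways that bear on the results. Levels below are TPM divided by a library's median-of-ratios factor, here called scaled TPM. This factor was 0.949 to 1.03 at the low dose, 1.06 to 1.13 at the mid dose and 0.882 to 0.923 at the high dose, without overlap. The mid-dose factors differed from the other 7 with p = 0.00833, the smallest that 120 arrangements allow (two-sided exact permutation test). Genes at 1 TPM or more numbered 15756 to 16130 at the low dose, 16113 to 16405 at the mid dose and 15280 to 15563 at the high dose. Low-dose replicate 5 carried skeletal muscle RNA, with a summed marker level of 1190 scaled TPM against 7.28 to 21.4 in the other 9 lungs. Low-dose replicate 4 and mid-dose replicate 3 stood high in interferon-inducible genes. Xist, a transcript of the inactive X chromosome, stood at 46.6 to 63.7 scaled TPM in all 10 libraries and the Y-linked Ddx3y was listed at 0 in each, which goes against the label of male sex. The lung identity was clear from Sftpc, the surfactant protein of alveolar type II cells, at 6193 to 23480 scaled TPM.

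No gene passed the test for a linear trend over dose. Of 16052 genes tested, 0 (0%) had an adjusted p under 0.05 in the limma fit with Benjamini-Hochberg adjustment, and the smallest adjusted p was 0.211. At an unadjusted p under 0.05 there were 2032 genes, of which 1200 (7.48%) had a slope above 0 and 832 (5.18%) a slope below 0. The slope is in log2 units per mg/mL, which is also the fitted log2 difference between 1.5 and 0.5 mg/mL, and its median over all genes was 0.03, against -0.08 with TPM as deposited and -0.05 with upper-quartile scaling. Slopes are on the log2(scaled TPM + 1) scale, which understates the change of genes at low levels. Every high-dose lung lay above every low-dose lung for 2152 genes (13.4%) and below every one for 1121 genes (6.98%). Such separations, here and below, were counted in scaled TPM only. The group descriptions that follow are read against these shares, and the members of each group were not tested as a set. For most lists the most abundant members are given; any further member was picked with its values known.

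Neutrophil transcripts stood highest at the high dose. All 18 tested markers had a slope above 0, 13 of them at an unadjusted p under 0.05, and the median slope was 1.19. None passed after adjustment. S100a9, a subunit of the calprotectin complex that fills the neutrophil cytosol, had 1736, 2160, 1389 and 2215 scaled TPM at the low dose, 4160, 882 and 2421 at the mid dose, and 6568, 7259 and 3776 at the high dose. Its partner S100a8 had 1177, 1119, 910 and 1392 scaled TPM at the low dose, 2354, 467 and 1418 at the mid dose, and 4375, 4723 and 2619 at the high dose. For both genes every high-dose lung lay above every low-dose lung, while mid-dose replicate 3 had the lowest level of the 10. The slope was 1.56 for S100a9 and 1.66 for S100a8 (limma, adjusted p = 0.318 and 0.326).

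Slopes differed widely among the neutrophil markers. Ngp, a secondary granule protein of maturing neutrophils, had a slope of 3.73, and its levels were 10.9, 1.70, 3.73 and 3.28 scaled TPM at the low dose, 13.0, 2.67 and 53.3 at the mid dose, and 150, 90.7 and 22.0 at the high dose. The high-dose lungs differed widely among themselves, yet each lay above the low-dose lungs. Camp, the cathelicidin precursor of the same granules, averaged 11.6 ± 5.93 scaled TPM at the high dose and 2.12 ± 0.876 at the low dose (SD, n = 3 and 4). Retnlg, a resistin-like protein of neutrophils, had 121, 250, 143 and 201 scaled TPM at the low dose, 253, 101 and 215 at the mid dose, and 547, 559 and 341 at the high dose. The cystatin Stfa2l1, one of several near-identical copies, had a slope of 2.28, and the proteases Mmp8 and Mmp9 had slopes of 1.13 and 1.03. Ltf, lactoferrin of the secondary granules, had a slope of 0.45 (unadjusted p = 0.419), with overlap between doses.

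Other neutrophil genes had smaller slopes. Cxcr2, the receptor for Cxcl2, averaged 48 ± 13.3 scaled TPM at the high dose and 33.1 ± 3.94 at the low dose, with a slope of 0.46. Csf3r, the receptor of the granulocyte growth factor, averaged 101 ± 22.3 scaled TPM at the high dose and 80.1 ± 4.17 at the low dose, with a slope of 0.31. The lungs of both doses overlapped for these 2 receptors. Elane and Mpo, the azurophil granule genes of early precursors, did not reach a mean of 1 TPM. The 18 markers summed to 3193 to 4382 scaled TPM at the low dose, 1878 to 7602 at the mid dose and 7629 to 13980 at the high dose. In control lungs S100a9 averaged 101 ± 17.8 scaled TPM (n = 4). In whole tissue, more neutrophils and more RNA per neutrophil cannot be told apart. Without high-dose replicate 2 or 3 the count of markers at an unadjusted p under 0.05 was 9, and it was 1, with a median slope of -0.18, when all 15 extract lungs were fitted.

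**Figure D2:**
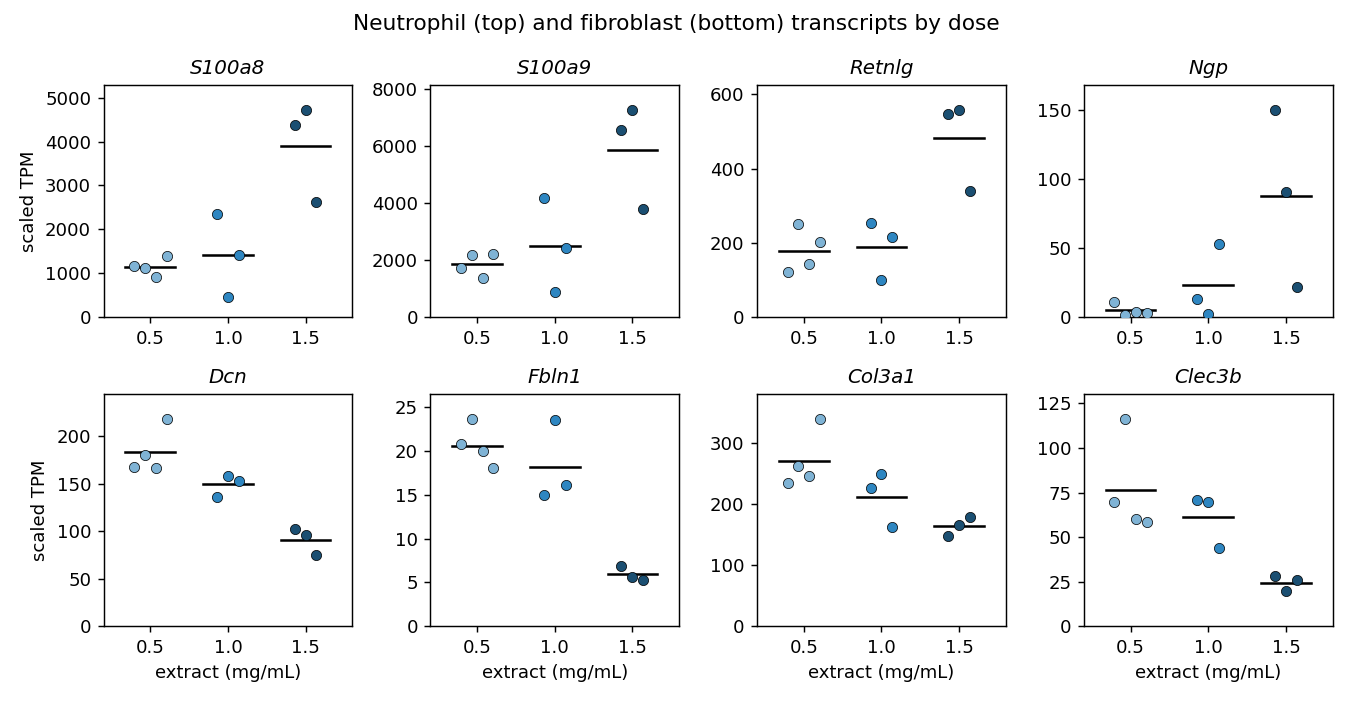
Scaled TPM (vertical axes, from 0) against extract dose in mg/mL for 4 neutrophil transcripts (top) and 4 fibroblast or matrix transcripts (bottom). Each point is 1 of the 10 lungs and each bar the mean of a dose. S100a8 stood at 2619 or more in the high-dose lungs and at 1392 or less in the low-dose lungs, and Dcn at 102 or less in the high-dose lungs and at 166 or more in the low-dose lungs.

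Platelet genes had slopes above 0 in all 8 tested members, 6 of them at an unadjusted p under 0.05, with a median slope of 0.53. Pf4, the platelet chemokine that marks this lineage, had 107, 79.4, 70.9 and 132 scaled TPM at the low dose, 85.3, 47.0 and 65.5 at the mid dose, and 111, 101 and 197 at the high dose, so that high and low doses overlapped. Ppbp, the precursor of another platelet chemokine, had a slope of 0.72 and also overlapped. Tubb1, the platelet-specific beta-tubulin, averaged 9.43 ± 1.36 scaled TPM at the high dose and 5.67 ± 1.45 at the low dose, without overlap. Only 3 of the 8 members had every high-dose lung above every low-dose lung. The count of 6 was 3 without low-dose replicate 4, low-dose replicate 5, high-dose replicate 2 or high-dose replicate 3, and also with TPM as deposited.

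The chemokines and cytokines that answer LPS showed no common direction. Of 19 tested, 11 had a slope above 0 and 4 had an unadjusted p under 0.05, all upward. With TPM as deposited that count was 1 and with upper-quartile scaling 2. These 4 were Ccl20, Csf2, Csf3 and Ccl2, of which Csf2 and Csf3 encode the granulocyte-macrophage and granulocyte growth factors. Ccl20 had 131, 35.0, 97.4 and 183 scaled TPM at the low dose, 144, 46.8 and 151 at the mid dose, and 218, 256 and 312 at the high dose, and its slope was 1.38. Csf3 averaged 29.1 ± 7.17 scaled TPM at the high dose and 14.2 ± 3.02 at the low dose. For both genes each high-dose lung lay above each low-dose lung. The most abundant member, Il1b, had a slope of 0.38 and averaged 610 ± 148 scaled TPM at the high dose and 464 ± 121 at the low dose, with overlap. Ccl3, a macrophage chemokine, had a slope of -0.39, and Tnf one of 0.42.

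Members of the LPS sensing and NF-kB list mostly had small slopes above 0. There were 21 of 24 such members, with a median of 0.27, and 4 of them (Irak3, Cd14, Myd88 and Ikbkb) had an unadjusted p under 0.05. The count depended on scaling, since upper-quartile scaling left 0 members upward and 1 downward at that level, with a median slope of 0.18. Cd14, the LPS co-receptor, had 348, 326, 433 and 536 scaled TPM at the low dose, 676, 256 and 465 at the mid dose, and 686, 742 and 584 at the high dose. In scaled TPM, though not with TPM as deposited, the high-dose lungs lay above the low-dose lungs, and the mid dose spanned both. The receptor Tlr4 had a slope of 0.04. Among immediate early genes 5 of 15 had slopes above 0 at an unadjusted p under 0.05, led by Fosl1, a Fos-family transcription factor, with a slope of 1.87. Fosl1 had 0.738, 1.66, 1.29 and 1.66 scaled TPM at the low dose, 2.92, 1.66 and 8.17 at the mid dose, and 8.81, 9.27 and 4.90 at the high dose. That count was 3 without low-dose replicate 4, without high-dose replicate 2 or with TPM as deposited, and 1, with a median slope of -0.01 against 0.29, when all 15 extract lungs were fitted.

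Interferon-gamma-inducible genes all had slopes below 0, yet none of 16 had an unadjusted p under 0.05. Their median slope was -0.90. Gbp2, an interferon-inducible GTPase, had 85.4, 183, 525 and 186 scaled TPM at the low dose, 61.9, 469 and 47.4 at the mid dose, and 161, 85.4 and 75.2 at the high dose. Low-dose replicate 4 and mid-dose replicate 3 stood far above the rest, and the doses overlapped. The type I interferon list had 17 of 20 slopes below 0, none at an unadjusted p under 0.05. Isg15, its most abundant member, had a slope of -0.02.

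Most genes of glycolysis and the hypoxia response had slopes above 0. Of 16 tested, 14 had a slope above 0 and 9 had an unadjusted p under 0.05, with a median of 0.42. Hif1a, the oxygen-regulated subunit of the hypoxia-inducible factor, had 43.3, 53.4, 57.0 and 60.8 scaled TPM at the low dose, 49.6, 38.4 and 69.2 at the mid dose, and 103, 132 and 91.3 at the high dose. Low and mid doses overlapped and the high dose stood above both, and the slope was 0.95 (limma, adjusted p = 0.313). The lactate exporter Slc16a3 had a slope of 0.83, the glucose transporter Slc2a1 0.59 and the glycolytic enzyme Eno1 0.66. The 2 most abundant members, Gapdh and Aldoa, had slopes of 0.38 (unadjusted p = 0.119) and 0.26 (unadjusted p = 0.189). Vegfa, a hypoxia target made by alveolar epithelium, had a slope of -0.25. The count of 9 was 3 without high-dose replicate 2 and 5 without low-dose replicate 3. It was 2, with a median slope of 0.24, when all 15 extract lungs were fitted. With TPM as deposited the count was 6 (median slope 0.29), and with upper-quartile scaling it was 7 (0.33). Neutrophils rely on glycolysis, and the neutrophil marker sum given above was also highest at the high dose; its part in these slopes was not tested.

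The NRF2 antioxidant list had 18 of 20 slopes above 0, with 4 (Gsr, Tkt, Taldo1 and Nqo1) at an unadjusted p under 0.05 (2 with TPM as deposited) and a median of 0.28. Gsr, glutathione reductase, averaged 146 ± 19.0 scaled TPM at the high dose and 84.4 ± 8.15 at the low dose. Nqo1, the quinone reductase often read as an NRF2 target, had a slope of 0.40, and Hmox1, heme oxygenase, one of 0.28. The most abundant members, the ferritin chains Fth1 and Ftl1, had slopes of 0.34 and 0.23. Xenobiotic enzymes had 13 of 16 slopes below 0, with 3 (Fmo1, Gstm2 and Ahr) at an unadjusted p under 0.05 and 5 with TPM as deposited. Cyp1a1, the classic aryl hydrocarbon receptor target, had a slope of -0.25. Among acute-phase genes 2 of 12, Hp and Saa3, had slopes above 0 at an unadjusted p under 0.05.

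Fibroblast and matrix transcripts stood lowest at the high dose. Of 16 tested, 14 had a slope below 0, 8 of them at an unadjusted p under 0.05, with a median of -0.57, and for 9 every high-dose lung lay below every low-dose lung. Dcn, the collagen-binding proteoglycan decorin, had 168, 181, 166 and 218 scaled TPM at the low dose, 136, 158 and 153 at the mid dose, and 102, 96.0 and 74.4 at the high dose. The 3 doses did not overlap at all for Dcn, and its slope was -0.99 (limma, adjusted p = 0.27). Col3a1, the type III collagen chain, averaged 164 ± 15.3 scaled TPM at the high dose and 270 ± 47.5 at the low dose. Inmt, a methyltransferase abundant in mouse lung fibroblasts and the top member of the list, had 1078, 1343, 614 and 441 scaled TPM at the low dose, 994, 1139 and 619 at the mid dose, and 332, 407 and 436 at the high dose. Mfap4, the second most abundant, had a slope of -0.52 at an unadjusted p of 0.0836.

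Not every stromal gene followed. Pdgfra, the growth factor receptor of lung fibroblasts, had a slope of 0.11 and Fn1, fibronectin, one of 0.09. The list summed to 2229 to 2977 scaled TPM at the low dose, 2321 to 3135 at the mid dose and 1451 to 1708 at the high dose. Fewer fibroblasts and less RNA per fibroblast cannot be told apart here. The high-dose lungs also had the highest neutrophil marker sums and the lowest scaling factors, and the part of either in the lower fibroblast levels was not tested. The count of 8 was 5 without high-dose replicate 2 or 3.

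**Figure D3:**
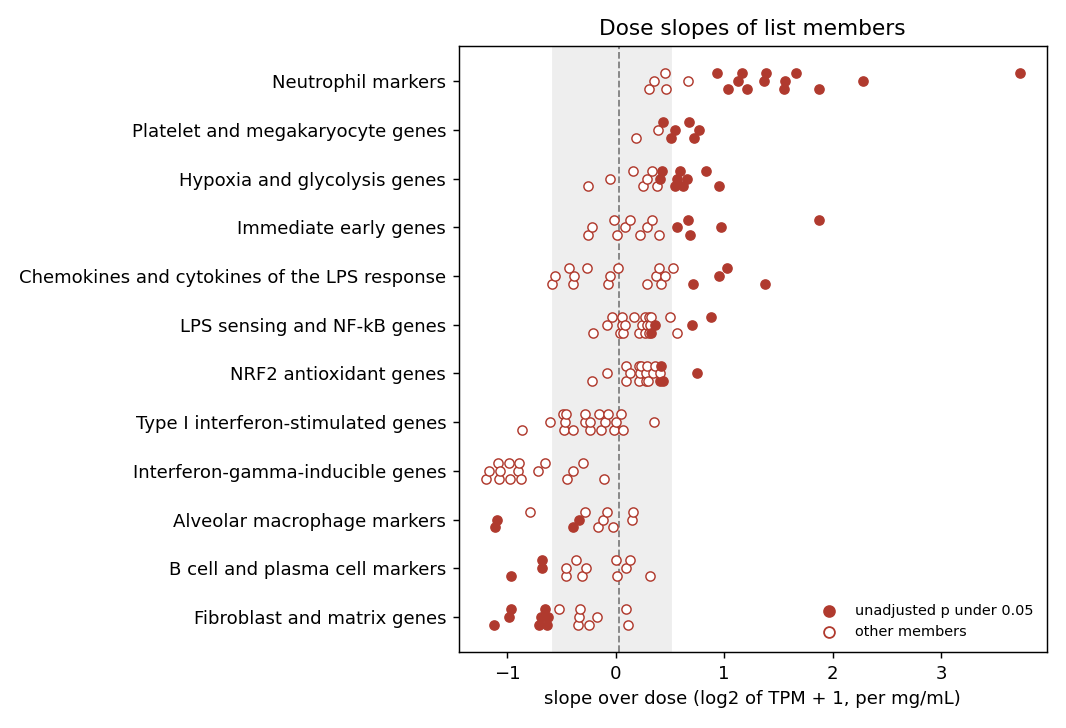
Slope over dose (log2 of scaled TPM + 1, per mg/mL) of every tested member of 12 gene lists in the 10 lungs. Filled points had an unadjusted p under 0.05, the grey band spans the 5th to 95th percentile of all 16052 genes (-0.577 to 0.506) and the dashed line marks their median. Neutrophil markers reach 3.73 to the right, and 8 fibroblast genes are filled on the left.

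Other cell types gave smaller or mixed slopes. The alveolar macrophage list had 4 of 12 members (Siglecf, Ear1, Plet1 and Car4) at an unadjusted p under 0.05, all downward. Of these Siglecf, a sialic acid-binding receptor, had 4.81, 7.13, 4.91 and 3.56 scaled TPM at the low dose, 2.30, 5.24 and 2.05 at the mid dose, and 2.09, 1.79 and 1.47 at the high dose. The most abundant, the chitinase-like Chil3, had a slope of 0.16. Recruited monocyte and macrophage markers were split 8 to 8 in sign. At an unadjusted p under 0.05 they had 2 of 16 upward (Itgam and Arg1) and none downward, but 2 upward and 2 downward with TPM as deposited. B cell markers had 3 of 13 members (Ighm, Ms4a1 and Jchain) downward at an unadjusted p under 0.05, and T and NK cell markers had none of 17. Endothelial markers had 1 upward (Cldn5, a tight junction claudin) and 2 downward (Tek and Calcrl) of 16, but none upward and 4 downward with TPM as deposited. Cardiac markers had 2 of 11 downward and the erythroid list 1 of 8 (4 with TPM as deposited), while alveolar type II genes had none of 12.

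Of genes with a proper symbol and a mean of 5 TPM or more, leaving out immunoglobulin and T cell receptor segments, the 12 with the smallest trend p in each direction are described although none passed (adjusted p 0.27 to 0.313). Upward they were Mapk13, Ier5l, Klf10, Parl, H2-Q2, Rassf1, Bloc1s4, Akap12, Crb3, Pglyrp1, Poc1a and Ripk3, with slopes of 0.44 to 1.76. Downward they included Dcn, Fbln1, Col14a1, Ddr2, Gpc3, Adh1, Gas1, Clec3b, Art4, Cyb561a3 and Podn, with slopes of -1.58 to -0.59. For each of the 24 the high- and low-dose lungs did not overlap. H2-Q2 belongs to a family of near-identical genes, so reads could have been split among its copies.

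Akap12, a scaffold for protein kinase A, had the steepest upward slope of these, 1.76. It had 35.5, 36.6, 46.7 and 45.5 scaled TPM at the low dose, 58.8, 41.0 and 163 at the mid dose, and 179, 150 and 105 at the high dose. Mid-dose replicate 5 stood with the high-dose lungs and the other mid-dose lungs near the low-dose ones. Ripk3, the kinase of necroptosis, had 12.5, 10.4, 14.4 and 14.5 scaled TPM at the low dose, 15.5, 10.3 and 21.7 at the mid dose, and 31.5, 26.6 and 23.98 at the high dose, with a slope of 1.00. Pglyrp1, a bactericidal peptidoglycan-binding protein stored in neutrophil granules, averaged 265 ± 45.1 scaled TPM at the high dose and 126 ± 26.4 at the low dose. Mapk13, the p38 delta kinase, averaged 34.6 ± 3.00 scaled TPM at the high dose and 22.2 ± 2.11 at the low dose.

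Several of the downward genes encode matrix or matrix-binding proteins. Clec3b, tetranectin, had 69.4, 116, 60.2 and 58.7 scaled TPM at the low dose, 70.9, 69.7 and 43.6 at the mid dose, and 28.0, 19.6 and 25.9 at the high dose, with a slope of -1.51. Col14a1, a fibril-associated collagen, averaged 2.01 ± 0.21 scaled TPM at the high dose and 7.55 ± 1.96 at the low dose. Gpc3, a membrane-anchored heparan sulfate proteoglycan, averaged 38.0 ± 6.06 scaled TPM at the high dose and 72.2 ± 13.6 at the low dose. In control lungs Gpc3 averaged 115 scaled TPM and Clec3b 177, above the mean of each dose.

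Testing the high dose directly against the low dose, without the assumption of a line, gave 17 genes, or 0.106% of those tested, of which 4 rose and 13 fell. Fbln1, fibulin 1 of the extracellular matrix, had 6.90, 5.63 and 5.28 scaled TPM at the high dose, against 20.8, 23.7, 20.0 and 18.0 at the low dose, and the mid-dose lungs held 15, 23.5 and 16.1. The high-dose lungs stood clear of the other 7, and Fbln1 fell by 1.64 on the log2 scale (SE 0.16, limma adjusted p = 0.022). Hyal1, a lysosomal hyaluronidase, had 5.95, 7.34 and 7.12 scaled TPM at the high dose, against 13.5, 12.2, 13.1 and 13.1 at the low dose. It fell by 0.84 (SE 0.09, adjusted p = 0.0258).

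The other genes that fell included Ddr2 (a collagen receptor kinase), Notch3 (the Notch receptor of mural cells), Tppp, Stt3a (a catalytic subunit of oligosaccharyltransferase), Dcn, Lama4 (a laminin chain of vascular basement membrane), Ighv1-55, Mpdz, Fndc1 and Igfbp4 (an insulin-like growth factor binding protein). Their changes ran from -2.23 for Ighv1-55 to -0.60 for Mpdz. Ighv1-55 is an immunoglobulin variable segment, whose level depends on single B cell clones. Ddr2 had 9.63, 10.1 and 9.73 scaled TPM at the high dose, against 16.1, 20.3, 17.9 and 17.5 at the low dose. Igfbp4 averaged 114 ± 18.2 scaled TPM at the high dose and 218 ± 34.8 at the low dose.

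The 4 genes that rose were Gtf3c6 (a subunit of the RNA polymerase III factor TFIIIC), Prkcb (protein kinase C beta, abundant in leukocytes), Gm49368 and the long noncoding RNA ENSMUSG00000143014. Prkcb had 23.6, 21.8 and 21.9 scaled TPM at the high dose, against 14.9, 14.3, 14.2 and 13.5 at the low dose, a change of 0.62 (SE 0.09, adjusted p = 0.0395). Gtf3c6 averaged 44.9 ± 1.89 scaled TPM at the high dose and 28.0 ± 2.15 at the low dose. ENSMUSG00000143014 had 2.39, 3.21 and 2.71 scaled TPM at the high dose and was listed at 0 in 3 of 4 low-dose lungs, with 0.453 in the fourth.

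The split between higher and lower genes depended on scaling. It was 4 to 13 with median-of-ratios factors, 2 to 28 with upper-quartile scaling and 6 to 94 with TPM as deposited, where the median change of all genes was -0.10, against 0.03 with the factors. Whether the 17 genes passed depended on which lungs were in the fit. No gene at all passed without low-dose replicate 2, 3 or 4 or high-dose replicate 5. Without mid-dose replicate 2 there was 1 gene, which was 1 of the 17. Without low-dose replicate 5 there were 2 genes, 1 of them among the 17. Without high-dose replicate 3 there were 3 genes, 0 of them among the 17. Without high-dose replicate 2 there were 5 genes, 2 of them among the 17. There were 49 without mid-dose replicate 3, with 17 shared, and 28 without mid-dose replicate 5, with 15 shared. Fbln1 passed in 5 of the 10 fits that each left out 1 lung, and its change stayed between -1.74 and -1.57 in all of them. Hyal1 passed in 3 of the 10, and its change stayed between -0.893 and -0.762.

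For many genes the mid dose did not lie on the line between the other doses. A departure from a line, the mid-dose level minus the mean of low and high on the log2 scale, passed for 1329 genes, of which 464 (2.89%) were higher at the mid dose and 865 (5.39%) lower. Hyal1 and Notch3 had the smallest p. Hyal1 had 18.7, 19.0 and 19.9 scaled TPM at the mid dose, above all low-dose and high-dose lungs, with a departure of 0.95 (SE 0.08, limma adjusted p = 0.00339). Notch3 had 25.6, 26.1 and 29.1 scaled TPM at the mid dose, against 18.7, 16.5, 17.1 and 18.6 at the low dose and 10.99, 10.3 and 9.78 at the high dose, with a departure of 0.94 (SE 0.08, adjusted p = 0.00339). Next came Slc24a4 (a sodium, potassium and calcium exchanger), Cbfa2t3 (a transcriptional corepressor) and Syne1 (a giant nuclear envelope protein), each 0.70 to 0.77 higher at the mid dose (adjusted p = 0.0145). Of the 17 genes that differed between high and low doses, 11 also passed here. Both tests used the same lungs and the same spread for each gene, so this overlap is not separate support.

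The lower group included many ribosomal and respiratory chain genes, whose transcripts are short and abundant. Of the 20 listed cytosolic ribosomal protein genes 17 were lower at the mid dose, with a median departure of -0.58, and of the 20 listed nuclear oxidative phosphorylation genes 14 were, with a median of -0.56. Rplp1, a stalk protein of the large ribosomal subunit, had 3028, 2247 and 2092 scaled TPM at the mid dose, against 3652, 3667, 4118 and 3829 at the low dose and 4257, 4471 and 4893 at the high dose. Every mid-dose lung lay below all others, and the departure was -0.78 (SE 0.12, adjusted p = 0.0145). Cox6c, a subunit of cytochrome c oxidase, had 575, 442 and 372 scaled TPM at the mid dose, against 683, 644, 660 and 733 at the low dose and 672, 764 and 915 at the high dose, again without overlap. The listed ribosomal genes summed to 21570 to 26720 scaled TPM at the mid dose, 29670 to 31400 at the low dose and 36760 to 42140 at the high dose. Ribosomal protein genes have many near-identical pseudogenes, so the share counted for each gene is uncertain.

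Counted by symbol over all tested genes, 72 of 81 cytosolic ribosomal protein genes, 37 of 78 mitochondrial ribosomal protein genes, 33 of 47 Nduf genes, 14 of 18 Atp5 genes and 15 of 38 proteasome genes were lower at the mid dose, and none was higher. With TPM as deposited these counts were 59 for the cytosolic ribosome, 17 for Nduf (and 1 higher), 9 for Atp5 and 3 for the proteasome. Fcor had the largest decrease among named protein-coding genes with a mean of 5 TPM or more (-1.28). Some other lower genes were picked with their values known. They were S100a4, a calcium-binding protein of motile cells (-1.02), Clec4a2, an inhibitory lectin of myeloid cells (-1.02), Tyms, thymidylate synthase (-0.86), and Pycard, the inflammasome adaptor ASC (-0.76). S100a4 had 264, 184 and 269 scaled TPM at the mid dose, against 304, 320, 316 and 426 at the low dose and 679, 585 and 786 at the high dose.

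Some genes of the higher group, picked with their values known, are given here. Ltbp2, a protein of elastic microfibrils, had 22.6, 33.5 and 24.6 scaled TPM at the mid dose, against 19.5, 14.4, 17.0 and 13.0 at the low dose and 6.19, 7.61 and 9.32 at the high dose, and a departure of 1.20 was the largest increase among named genes with a mean of 5 TPM or more. Of the 4 Notch receptors 3 passed, all higher, and of 27 collagen genes 3 did. With TPM as deposited these counts were 4 and 12. Fgfr3, a fibroblast growth factor receptor, was 0.85 higher and Slit3, a secreted guidance protein, 0.79 higher.

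**Figure D4:**
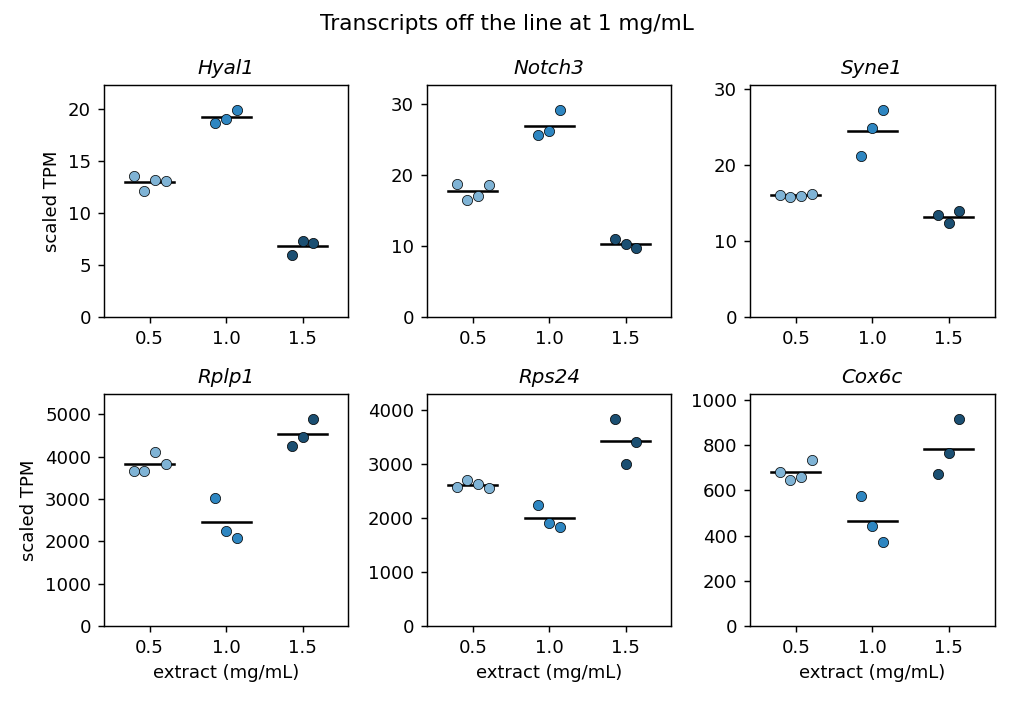
Scaled TPM (vertical axes, from 0) against extract dose in mg/mL for 3 transcripts higher at the mid dose (top) and 3 lower at it (bottom). Each point is 1 of the 10 lungs and each bar the mean of a dose. Hyal1 stood at 18.7 to 19.9 at 1 mg/mL and at 13.5 or less at the other doses, while Rplp1 stood at 3028 or less at 1 mg/mL and at 3652 or more at the others.

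The departures moved with annotated transcript length. Lengths, the median over a gene's annotated transcripts, could be attached by gene ID to 94.4% of tested genes and were divided into 10 bins of equal size. This median counts every annotated transcript alike, so it need not be the length of the transcripts present in these lungs. By it Notch3 and Adgra3, both higher at the mid dose, had 717 and 543 nucleotides. In the shortest bin, with a median of 482 nucleotides, 204 genes were lower at the mid dose and 22 higher, and in the longest, with a median of 4244 nucleotides, 13 were lower and 109 higher. Across genes, which are not independent replicates, Spearman's rho of length with the departure was 0.242 and with the dose slope -0.113. The bin that holds the median ribosomal gene had a median departure of -0.07, against -0.58 for the ribosomal list. That bin was not matched to the ribosomal genes in abundance. The mid-dose lungs also had the highest scaling factors of the 10, as given above. The part of transcript length or library composition in these departures was not tested.

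**Figure D5:**
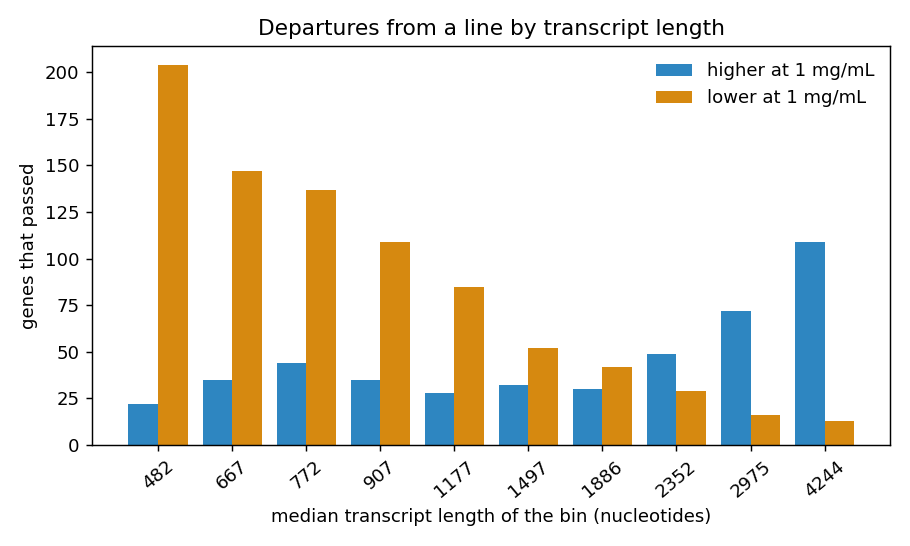
Number of genes that passed the test for departure from a line, in 10 bins of annotated transcript length. The vertical axis gives genes and the horizontal axis the median length of each bin in nucleotides. Blue bars are genes higher at 1 mg/mL and orange bars genes lower at it. Lower genes drop to 13 in the longest bin and higher genes climb to 109 there.

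The number of departures that passed rested on mid-dose replicates 3 and 5. Without replicate 3 of the mid dose 2 genes passed and without replicate 5 there were 5, against 1308 without replicate 2. The departures themselves stayed of similar size. The median of the ribosomal list was -0.53 without replicate 3 and -0.52 without replicate 5, and that of the oxidative phosphorylation list -0.50 and -0.45, while 0 members of either list passed. Leaving out low-dose replicate 5 gave 687 genes, high-dose replicate 3 gave 667 and high-dose replicate 5 gave 529. Hyal1 and Notch3 passed in all 10 of these fits, with adjusted p up to 0.0475. The direction of the whole set depended on scaling as well. With TPM as deposited 2666 genes were higher and 312 lower at the mid dose, and the median of all genes was 0.19, against -0.01 with median-of-ratios factors.

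Whether dose slopes differed from those in the 5 extract lungs with low Cxcl2 was tested as an interaction. No gene of 16262 passed (0%), with a smallest adjusted p of 0.163. At an unadjusted p under 0.05 there were 1418 genes, of which 845 (5.2%) had a slope difference above 0, that is, a more positive slope in the lungs with high Cxcl2 than in those with low Cxcl2. The 5 smallest p belonged to Csf2ra, Ear2, Apln, C5ar1 and Itga4, with slope differences of 1.43 to 2.61. Such a difference can come from either class: Ear2, a ribonuclease with near-identical copies that could share its reads, had a slope of -0.08 in the lungs with high Cxcl2. In the lungs with low Cxcl2 it had 249 scaled TPM at the low dose, 168 and 137 at the mid dose and 64.9 and 57.3 at the high dose. Of the 18 neutrophil markers 13 had a difference above 0 at an unadjusted p under 0.05, with a median difference of 2.31, against a median slope of 1.19 in the lungs with high Cxcl2. The low-Cxcl2 class holds 1 low-dose lung, whose neutrophil markers summed to 1533 scaled TPM, beside 785 and 289 at the mid dose and 555 and 452 at the high dose, so its slope hangs on that lung. The lungs were divided by Cxcl2, so genes whose level goes with Cxcl2 are not independent of that division.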

How the data were processed

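Total lung RNA of 24 mice was sequenced after ribosomal RNA removal (Illumina paired-end). The deposited table gives TPM, computed by the authors, for 78298 genes, of which 21883 carry no symbol. HISAT2, StringTie, RSEM and build GRCm39 are named per the submitters' processing notes, without versions. No counts were available, so depth is unknown, no counting interval is given, and the count model planned in case of counts was not used.

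TPM was divided by median-of-ratios factors over the 24 libraries. Genes with a mean of 1 TPM or more over the 10 libraries (16052) were fitted as log2(scaled TPM + 1) with limma 3.58.1 in R 4.3.3 (variance trend, robust prior, two-sided). Benjamini-Hochberg adjustment ran over all tested genes, with a threshold of 0.05. Contrasts were the slope over dose, high minus low, mid minus the mean of both, and the interaction with the Cxcl2 class. P-values measure the spread between these lungs. The libraries, the 37 gene lists and the named genes' rule were chosen with earlier results of these data known. By that rule the 12 smallest p per direction (mean of 5 TPM or more, proper symbol, no immunoglobulin or T cell receptor segment) are named where under 4 genes passed, the 5 smallest p in the other tests and the 2 most abundant members of a list. Other genes were chosen after their values were seen. 1 gene that the rule names is not reported here. Transcript lengths came from GENCODE vM21 (build GRCm38) by gene ID. The fit was also run on simulated libraries with independent noise for each gene and equal scaling factors. It therefore could not show how the scaling factors that differed by dose affect the calls, and no result above rests on it. Alternatives were other scalings, filters, pseudocounts, weights, a replicate block, a Cxcl2 covariate, all 15 extract lungs, a fold threshold and leaving out each lung.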

Additional observations from a re-analysis of the deposited data

Results flagged for a closer look

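Among 107 named genes, 8 had 1 low-dose lung that lay apart from the other 3 by Dixon's criterion, which chance alone meets in about 1 of 20 groups. Groups of 3 were not tested. In low-dose replicate 5, the skeletal muscle genes Acta1 and Tnnt3 stood at 473 scaled TPM (others 0.105 to 0.322) and 207 scaled TPM (others 3.51 to 7.47). In the same lung Gstm1, a glutathione transferase, stood at 290 scaled TPM (others 404 to 422) and Poc1a, a centriole protein, at 4.23 (others 5.04 to 5.15). In low-dose replicate 4, Gsdmd, the pyroptosis pore protein, stood at 96.9 scaled TPM (others 56.1 to 61.1). In low-dose replicate 3, Bloc1s4 stood at 16.0 scaled TPM (others 17.4 to 17.7) and Podn at 16.3 (others 13.0 to 13.5). In low-dose replicate 2, Xist stood at 46.6 scaled TPM (others 60.4 to 63.7). Acta1 also averaged 993 scaled TPM over the 3 LPS lungs with Cxcl2 of 10 TPM or more.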

How the results depend on the processing

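The trend test gave 0 genes under every scaling, filter and pseudocount, 6 with array quality weights, and 0 to 18 when each lung was left out. High against low gave 100 genes with TPM as deposited, 30 with upper-quartile scaling, 912 with array quality weights, 9 without a filter, 6 without variance trend and robust prior, 7 with Cxcl2 as covariate, 7 at an absolute log2 change of 1 or more, 0 with all 15 extract lungs and 0 to 49 when each lung was left out. Departures from a line numbered 2978 with TPM as deposited, 294 without a filter, 24 at an absolute log2 change of 1 or more and 2 to 1308 when each lung was left out. The cause of these shifts was not tested. Same-numbered lungs among the 10 did not deviate together (9 pairs, r -0.148 to 0.0652). The pairs hold only lungs chosen by Cxcl2, and that choice partly followed the numbers. Replicate 1 was left out at each dose (0.64, 0.52 and 0.44 TPM). Replicate 4 was left out at the mid and high doses (0.4 and 0.37 TPM) but kept at the low dose. These pairs therefore cannot show whether same-numbered lungs had something in common. With the replicate number as a block 0 genes passed in each test, and 1899, 3118 and 3853 had an unadjusted p under 0.05. Signs were checked for the 12 genes per direction named for the trend, the 17 that passed high against low and the 5 named in each other test. None of these changes reversed, but the 5 of the slope difference were refitted only with other scalings and another pseudocount. Genes named only as list members were not checked in this way. The median slopes of neutrophil markers (-0.18) and of immediate early genes (-0.01) did reverse with all 15 extract lungs. Groups of 3 and 4 lungs and unknown depth limit what could be detected.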

Other observations

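The remaining gene lists showed few dose slopes at an unadjusted p under 0.05 among the 10 lungs, and no member passed after adjustment. Smooth muscle and pericyte genes had 2 of 12 downward, Rgs5 (a signalling regulator of pericytes) with a slope of -1.10 and Hhip (a hedgehog-binding protein) with -0.52. Club and airway genes had 2 of 12 upward, junction genes 1 of 12 (F11r, slope 0.27), unfolded protein response genes 2 of 18 and cell cycle genes 1 of 17. Alveolar type I genes had 1 of 12 downward, motile cilia genes 1 of 16 and lipid metabolism genes 1 of 18. Inflammasome genes (9) and circadian clock genes (17) had 1 in each direction. Glucocorticoid response (12), adipocyte (7) and skeletal muscle (7) genes had none. Cholesterol synthesis genes had none of 19 although 17 slopes lay above 0, with a median of 0.21 (0.08 with TPM as deposited). The ribosomal protein and oxidative phosphorylation lists, whose mid-dose departures are given above, had 1 of 20 upward each, and all 20 slopes of each lay above 0. With TPM as deposited 15 of the 20 oxidative phosphorylation slopes did. Yet in scaled TPM every high-dose lung lay above every low-dose lung for 19 of 20 ribosomal and 12 of 20 oxidative phosphorylation members. The share over all genes was 13.4%. These separations were not counted with TPM as deposited. Scaling factors were 0.882 to 0.923 at the high dose and 0.949 to 1.03 at the low dose, which raises scaled levels at the high dose. Mid-dose levels of both lists lay off the line that the slope assumes.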
